A study of Marchantia polymorpha with 9 samples.

Results

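The genes described here are the 150 most abundant thallus transcripts of the liverwort Marchantia polymorpha, defined as the 150 genes on chromosomes 1 to 8 with the highest mean TPM over the 3 wild-type libraries. TPM is the authors' measure of transcript level, scaled by gene length and library depth. They are 150 of 20090 listed genes on these chromosomes and of 20574 in all. The wild type was BoGa, and the mutants were Mpb-gata1-1 and Mpb-gata1-2, lines named as mutants of MpB-GATA1, a B-type GATA transcription factor. Each group had 3 libraries, each made from 3 whole plants grown untreated for 3 weeks in long days, and each allele is represented by 1 line. The labels do not say how the alleles were made, and nothing says that the replicates came from separate cultures, so p-values measure the spread between these libraries. The question of the series is how loss of this factor alters the transcriptome, asked here of the genes that dominate it.

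A small number of genes fills much of the mRNA pool of a photosynthetic tissue. In thallus, as in leaves, that fraction usually holds genes for the light-harvesting and carbon-fixing machinery, for protein synthesis, for water channels and for the cytoskeleton. B-GATA factors are known in flowering plants as regulators of greening and chloroplast development. Only 11 of the 150 genes have a symbol in the name table used, so most are given below by locus number and without a role.

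Depth was 24823337 to 44133919 gene reads per library. The 150 genes held 4623224 to 8112621 of those reads in a library, and the least-read of them still had 4597 reads, so counting error is small beside the spread between libraries. All 150 passed the filter on low counts. Mp7g03490 (MpGATA4), taken here from knowledge of the study to be the mutated gene, ranked 1387 in BoGa. Its level was 117, 116 and 117 TPM in BoGa, 205, 208 and 211 TPM in Mpb-gata1-1 and 236, 230 and 235 TPM in Mpb-gata1-2. Its reads therefore did not fall in the mutants, and a count over the whole gene does not test a small lesion. The libraries also differed in the genes of the V chromosome, which male plants carry. The median level of 22 V-linked genes, relative to the Mpb-gata1-2 mean, was 0.0174 to 0.0254 in Mpb-gata1-1, 0.947 to 1.04 in Mpb-gata1-2, and 0.360, 0.516 and 0.663 in BoGa replicates 1, 2 and 3. The group of a single mutant and its V level cannot be told apart. Of the marker lists, 4 gemma cup genes summed to 46.8 to 58.5 TPM in BoGa, 64.4 to 69.5 TPM in Mpb-gata1-1 libraries and 82.2 to 84.1 TPM in Mpb-gata1-2 libraries, although MpCLE2 of that list was lower in every mutant library (13.3 to 14.0, then 11.1 to 12.7 and 10.8 to 11.3 TPM). In the same order, 2 rhizoid genes summed to 13.1 to 13.9, 16.7 to 19.7 and 15.4 to 17.6 TPM, and 4 oil body genes to 13.3 to 16.9, 15.3 to 18.6 and 16.8 to 17.9 TPM. The 2 genes listed for air pore and epidermis, MpNOP1 and MpSMR, summed to 63.3 to 71.9, 56.5 to 60.4 and 56.0 to 59.6 TPM. Only MpSMR differed (27.2 to 37.3, then 19.1 to 21.1 and 19.5 to 21.1 TPM), and MpNOP1 overlapped between the groups. The list was thus not lower as a whole, and MpSMR alone is not read as a marker of air pores. The 4 sexual organ genes found summed to 114.8 to 121.3, 92.7 to 100.9 and 111.2 to 118.3 TPM, nearly all of it MpRKD, and MpBHLH20 was listed at 0 in all 9 libraries. Within that sum, MpR2R3-MYB1 stood at 2.80 to 6.16, 0.238 to 0.391 and 5.89 to 8.02 TPM, and MpDUO1 at 0.990 to 1.26, 1.39 to 1.49 and 1.325 to 1.461 TPM. The part of these differences in the results below was not tested. In whole plants, fewer cells of a type and less RNA per cell cannot be told apart.

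Because the genes were chosen by their BoGa level, which is an arm of every comparison with BoGa, the choice itself tilts these comparisons towards lower values in the mutants. Counts against BoGa are therefore descriptions. The choice used no mutant library, so the comparison of Mpb-gata1-2 with Mpb-gata1-1 is free of it.

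The 150 genes took a smaller share of the transcriptome in both mutants. They held 19.8%, 20.9% and 21.7% of all gene reads in the BoGa libraries, a mean of 20.8% ± 0.966 (SD, n = 3). In Mpb-gata1-1 they held 18.6%, 17.5% and 18.1%, a mean of 18.1% ± 0.575 (SD, n = 3). In Mpb-gata1-2 they held 17.7%, 19.2% and 18.6%, a mean of 18.5% ± 0.742 (SD, n = 3). All 6 mutant libraries lay below all 3 BoGa libraries, and the mutants overlapped each other. The difference from BoGa was -2.74 percentage points in Mpb-gata1-1 and -2.26 percentage points in Mpb-gata1-2. As a share of the TPM sum, which gives short genes more weight, the means were 34.1%, 30.3% and 31.2%.

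The size of that difference changed with the way the genes were chosen. When the 150 genes were instead those with the highest mean TPM over the 6 mutant libraries, the difference was -1.16 points in Mpb-gata1-1 and -1.41 points in Mpb-gata1-2. When each library was given its own 150 highest genes, the share was 19.8% to 21.6% in BoGa, 18.9% to 19.9% for Mpb-gata1-1 and 18.7% to 19.8% for Mpb-gata1-2, and the groups overlapped. Choosing the genes from 2 BoGa libraries and measuring them in the BoGa library left out gave 19.6%, 20.8% and 21.6%, close to the values above.

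**Figure D1:**
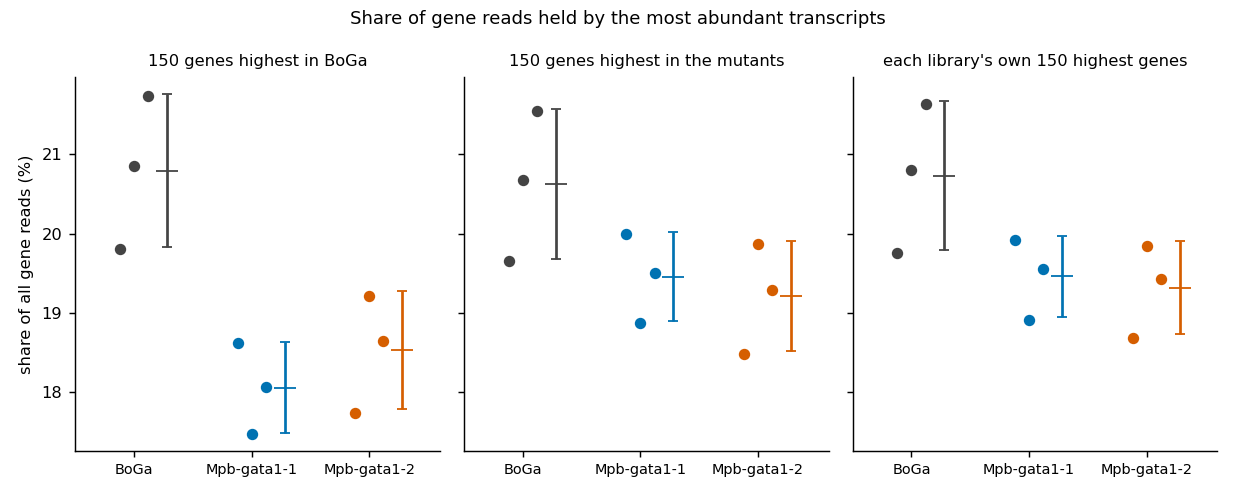
Share of all gene reads (%, vertical axis, not starting at 0) in each library for 3 choices of 150 genes, with points for libraries and a horizontal mark with bars for the mean ± SD of 3. The mutant means differ from BoGa by -2.74 and -2.26 points when BoGa chose the genes. They differ by -1.16 and -1.41 points when the mutants did. In that choice and with each library's own 150 genes, the BoGa and mutant libraries overlap.

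Gene by gene, far more of the 150 were lower than higher. In Mpb-gata1-1, 67 genes (44.7%) passed as lower and 4 (2.67%) as higher by edgeR's quasi-likelihood test at a Benjamini-Hochberg adjusted p under 0.05 over all tested genes. Over all 14667 tested genes, 23.0% were called lower and 23.0% higher there. In Mpb-gata1-2, 71 genes (47.3%) were lower and 5 (3.33%) higher, beside 24.7% lower and 21.7% higher over all tested genes. For the mean of the mutants, 74 genes (49.3%) were lower and 6 (4%) higher, 53.3% in all, beside 26.1% lower, 22.7% higher and 48.8% in all over the tested genes. The share called in either direction, 47.3% and 50.7% in the single mutants, was near the background of 46.0% and 46.4%, so the tilt lies in the direction of the calls and not in their number. The same tilt is what the choice of genes favours. Genes chosen from the 6 mutant libraries, a choice that favours higher values, gave 63 lower and 9 higher for the mean of the mutants. Of those genes, 138 are also in the set of 150, so the 2 counts are not independent.

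The changes were modest. The median fitted log2 change was -0.14 in Mpb-gata1-1 and -0.18 in Mpb-gata1-2, beside 0.003 and -0.019 over all tested genes. A fall of at least 1.5-fold was fitted for 13 genes in Mpb-gata1-1 and for 4 genes in Mpb-gata1-2. A rise of that size was fitted for no gene in either. In CPM, the reads of a gene scaled to library size (here by TMM), 56 of the 150 genes (37.3%) had all 6 mutant libraries below all 3 BoGa libraries, beside 16.3% of all tested genes. Only Mp4g02740 and Mp7g03680, 1.33% of the 150, had all 6 above, beside 16.4%.

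The counts changed with the scale and, for the single mutants, with the V level, both in the set and over all tested genes. On log2(TPM + 1) with limma, 24 genes were higher and 54 lower in Mpb-gata1-1, 10 higher and 47 lower in Mpb-gata1-2, and 13 and 60 for the mean. Over all 14667 tested genes, that fit called 4541 higher and 2340 lower in Mpb-gata1-1. It called 4198 higher and 2546 lower in Mpb-gata1-2, and 4582 and 2545 for the mean. With the V level as a covariate, chosen after seeing the data, 8 genes were lower and 3 higher in Mpb-gata1-1 and 7 and 0 in Mpb-gata1-2, whereas the mean of the mutants gave 75 lower and 6 higher. Calls fell over all 14667 tested genes too, to 1103 lower and 722 higher in Mpb-gata1-1 and 655 and 500 in Mpb-gata1-2. For the mean they were 3984 lower and 3566 higher. Without Mpb-gata1-2 replicate 1 the lower genes in Mpb-gata1-2 numbered 44, and the higher genes in Mpb-gata1-1 numbered 9 without BoGa replicate 3 and 2 without Mpb-gata1-1 replicate 3.

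By tier of abundance, the values were as follows, with rank and change both taken from the same BoGa libraries, so that the order of the tiers is a description. Among ranks 1 to 25, 19 genes were lower and 1 higher for the mean of the mutants, with a median log2 change of -0.38. Over ranks 26 to 50 the median was -0.17 with 13 genes lower, and over ranks 51 to 75 it was -0.16 with 12. Over ranks 76 to 100 and 101 to 125 it was -0.11, with 10 lower and 1 higher in each. Over ranks 126 to 150 it was -0.10 with 10 lower and 3 higher. In Mpb-gata1-1 alone the medians of the tiers in order were -0.41, -0.25, -0.14, -0.05, -0.03 and -0.05. In Mpb-gata1-2 alone they were -0.27, -0.17, -0.14, -0.20, -0.18 and -0.15, lowest in the first tier and with no trend after it. The first 25 genes alone went from 8.14% of gene reads in BoGa down to 6.49% for Mpb-gata1-1 and 7.01% for Mpb-gata1-2. At the threshold itself, Mp8g03850, MpGH16.42 (Mp8g18980) and Mp5g19870 had BoGa means of 976, 973 and 970 TPM at ranks 148 to 150, and Mp3g04870, Mp6g01650 and Mp3g22950 had 964, 963 and 961 TPM just outside.

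**Figure D2:**
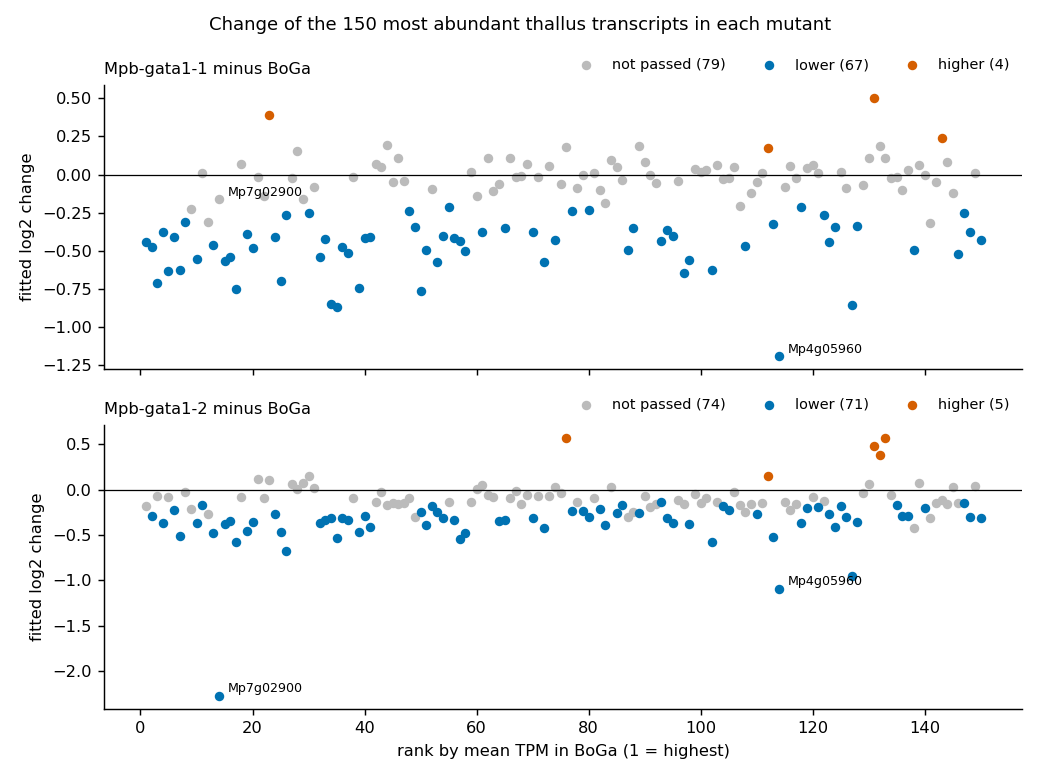
Fitted log2 change of each of the 150 genes (vertical axis) against its rank by mean TPM in BoGa (horizontal axis), with Mpb-gata1-1 above and Mpb-gata1-2 below. Colours give the result at an adjusted p under 0.05 (67 lower and 4 higher, then 71 lower and 5 higher), and Mp7g02900 lies low in Mpb-gata1-2 alone.

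The single most abundant transcript was Mp4g10850 (chromosome 4, 11898115 to 11899397, minus strand). Its level was 16738, 17845 and 19642 TPM in BoGa, 14537, 13299 and 14707 TPM in Mpb-gata1-1, and 15977, 17383 and 17749 TPM in Mpb-gata1-2. Mpb-gata1-1 lay below BoGa without overlap, and Mpb-gata1-2 overlapped BoGa. The fitted log2 change was -0.44 ± 0.09 (SE) in Mpb-gata1-1 (edgeR adjusted p = 0.00214) and -0.18 ± 0.09 in Mpb-gata1-2 (edgeR adjusted p = 0.121). It stayed at rank 1 in both mutants.

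Mp2g07490 (chromosome 2, 7866984 to 7869049, plus strand; rank 3) cost the set the most reads in Mpb-gata1-1. It stood at 10099, 10402 and 9012 TPM in BoGa, 6318, 6392 and 6473 TPM in Mpb-gata1-1, and 9600, 9754 and 10666 TPM in Mpb-gata1-2. The Mpb-gata1-1 libraries were all below the rest, and Mpb-gata1-2 overlapped BoGa. The log2 change was -0.72 ± 0.07 in Mpb-gata1-1 (edgeR adjusted p = 2.5e-05) and -0.07 ± 0.07 in Mpb-gata1-2 (edgeR adjusted p = 0.452). Its loss was -0.248 percentage points of gene reads in Mpb-gata1-1, compared with -0.013 points in Mpb-gata1-2.

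The loss of share was spread over many genes. In Mpb-gata1-1, 90 genes lost -3.20 points between them and 60 gained 0.465 points, and the 8 largest losses made up 40.4% of the net change. In Mpb-gata1-2, 125 genes lost -2.59 points and 25 gained 0.328 points, with the 8 largest losses at 32.2%. After Mp2g07490, Mp4g10850 (-0.184 points in Mpb-gata1-1 and -0.071 points in Mpb-gata1-2) and Mp3g03990 (-0.182 and -0.103) lost the most in Mpb-gata1-1.

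**Figure D3:**
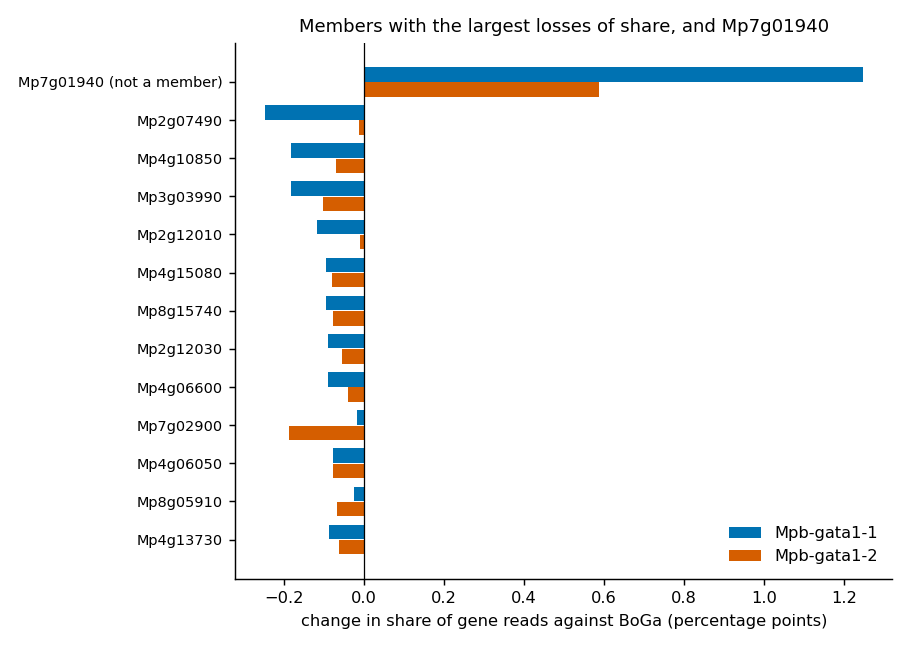
Change in the share of all gene reads against BoGa (percentage points, horizontal axis, bars from 0) for the genes of the set with the 8 largest losses in each mutant, and for Mp7g01940, which is outside the set. Mp2g07490 loses -0.248 points in Mpb-gata1-1 and Mp7g02900 loses most in Mpb-gata1-2.

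The largest fall of the set belonged to Mp7g02900 (chromosome 7, 3508326 to 3509855, plus strand; rank 14), and to 1 mutant. It read 4593, 4179 and 5343 TPM in BoGa, 3793, 5228 and 4477 TPM in Mpb-gata1-1, and 884, 1211 and 1005 TPM in Mpb-gata1-2. Mpb-gata1-2 stood far below both other groups, which overlapped each other. The log2 change was -2.28 ± 0.15 in Mpb-gata1-2, 4.84-fold lower (edgeR adjusted p = 2.52e-06), and -0.16 ± 0.14 in Mpb-gata1-1 (edgeR adjusted p = 0.378).

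Mp4g05960 (chromosome 4, 6726275 to 6727488, minus strand; rank 114) had the largest fall that passed in both mutants. It had 1277, 1215 and 1129 TPM in BoGa, 627, 513 and 548 TPM in Mpb-gata1-1, and 575, 595 and 636 TPM in Mpb-gata1-2. Every mutant library was below every BoGa library. The log2 change was -1.19 ± 0.09 in Mpb-gata1-1 (edgeR adjusted p = 5.01e-06) and -1.09 ± 0.09 in Mpb-gata1-2 (edgeR adjusted p = 7.06e-06). Of its reads 82.8% were unique to it, so some may belong to a near copy. For the mean of the mutants the next largest falls were Mp4g05980 (log2 -0.91, with 78.1% unique reads), Mp7g06710 (-0.70), Mp4g06030 (-0.67), Mp7g06760 (-0.61), Mp2g07880 (-0.60), Mp7g05890 (-0.58), Mp2g07510 (-0.58) and Mp4g15080 (-0.57), and all 8 passed.

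Against this, 6 genes rose for the mean of the mutants, though not all passed in both. Mp7g03680 (chromosome 7, 4525198 to 4527745, plus strand; rank 131) had 982, 1119 and 1135 TPM in BoGa, 1674, 1494 and 1725 TPM in Mpb-gata1-1, and 1666, 1622 and 1516 TPM in Mpb-gata1-2. All mutant libraries were above BoGa, and the mutants overlapped each other. Its log2 change was 0.50 ± 0.09 in Mpb-gata1-1 (edgeR adjusted p = 0.000988) and 0.48 ± 0.09 in Mpb-gata1-2 (edgeR adjusted p = 0.00132). The others were Mp5g03550 (log2 0.38), Mp2g19940 (0.34), Mp7g18950 (0.28), Mp7g14690 (0.25) and Mp4g02740 (0.16). The call of Mp5g03550 was lost without BoGa replicate 1 or 2, replicate 1 or 3 of Mpb-gata1-1, or replicate 2 or 3 of Mpb-gata1-2. Mp5g03550 passed in Mpb-gata1-2 (log2 0.57) and not in Mpb-gata1-1 (0.18). Mp7g14690 passed in Mpb-gata1-1 (log2 0.39) and not in Mpb-gata1-2 (0.11), and Mp4g02740 passed in both.

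**Figure D4:**
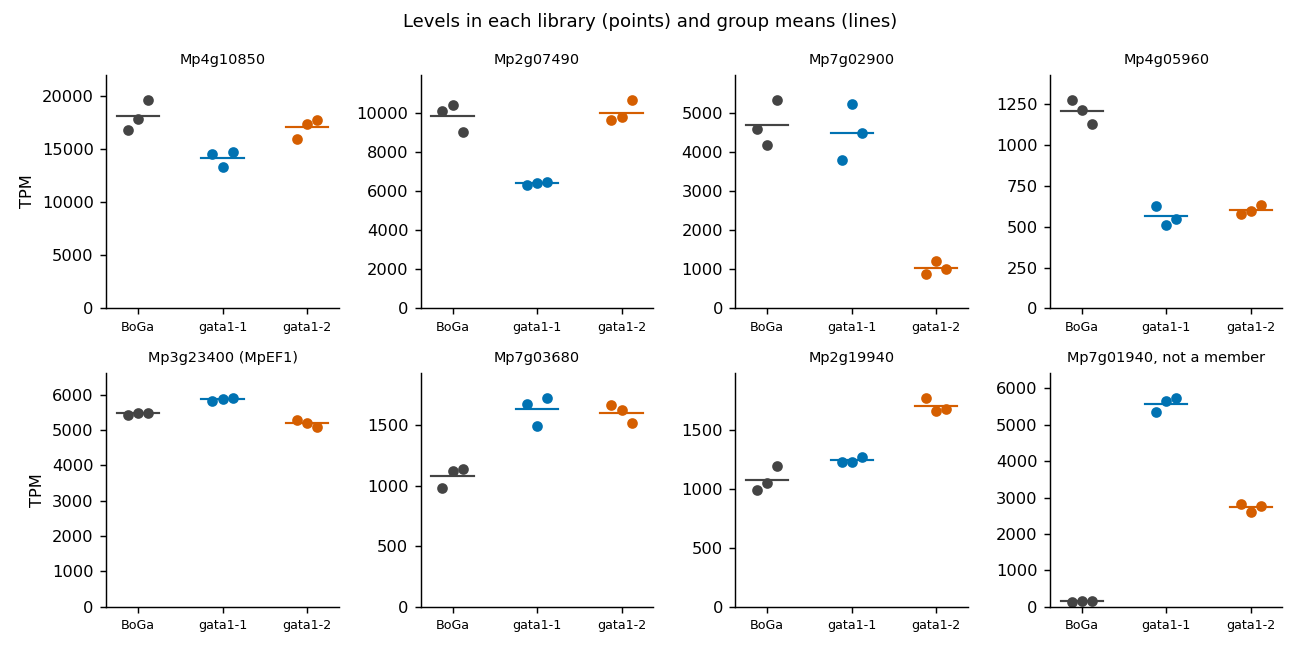
Levels in TPM (vertical axes from 0) of 8 genes in the 3 libraries of each group, BoGa first, with points for libraries and lines for group means. Mp2g07490 is low in Mpb-gata1-1, Mp7g02900 in Mpb-gata1-2, Mp4g05960 in both, and Mp7g01940, outside the set, is high in both.

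Set against each other, the mutants differed at 26% of these genes. In Mpb-gata1-2 relative to Mpb-gata1-1, 17 of the 150 genes were higher and 22 lower, beside 14.9% higher, 16.0% lower and 30.9% in all over the tested genes. The count for the set is a little below that background, and the median log2 difference was -0.005 beside 0.001 over all tested genes. The lower genes numbered 9 without Mpb-gata1-1 replicate 1, 11 without Mpb-gata1-1 replicate 3, 9 without Mpb-gata1-2 replicate 1 and 8 without Mpb-gata1-2 replicate 3. With the V level as a covariate no gene of the set passed, beside 142 higher and 140 lower of all 14667 tested genes.

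The genes higher in Mpb-gata1-2 were led by Mp2g07490, at a log2 difference of 0.65 ± 0.07 (edgeR adjusted p = 5.27e-05). Mp2g12010 (chromosome 2, 12201117 to 12202434, plus strand; rank 5) had 8260, 7770 and 8420 TPM in BoGa, 5472, 5549 and 5785 TPM in Mpb-gata1-1, and 7270, 8997 and 8272 TPM in Mpb-gata1-2. It was low in Mpb-gata1-1 alone, and its log2 difference between the mutants was 0.55 ± 0.08 (edgeR adjusted p = 0.000685). Mp7g05890 (0.54), Mp3g20970 (0.52), Mp2g07500 (0.49), Mp2g19940 (0.46) and Mp7g05880 (0.46) also passed as higher.

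The genes lower in Mpb-gata1-2 were led by Mp7g02900, at a log2 difference of -2.11 ± 0.15 (edgeR adjusted p = 4.4e-06). Mp3g11670 followed at -0.45 ± 0.08 (edgeR adjusted p = 0.0019), with 1292, 1378 and 1523 TPM in BoGa, 1720, 1682 and 1692 TPM in Mpb-gata1-1, and 1237, 1321 and 1166 TPM in Mpb-gata1-2. In TPM its Mpb-gata1-1 libraries were above both other groups, which overlapped. By the fit against BoGa, Mp3g11670 did not pass in Mpb-gata1-1 (log2 0.19, edgeR adjusted p = 0.0833). It was lower in Mpb-gata1-2 (log2 -0.26, edgeR adjusted p = 0.0208). Mp8g05910 (-0.42), Mp2g24740 (-0.36), Mp5g00090 (-0.35) and Mp1g23580 (-0.32) came next.

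A number of the abundant genes were neighbours. With a gap of at most 20 kb, 27 of the 150 fell into 11 groups of 2 to 5 genes. Of these 27, 20 were lower and 1 higher for the mean of the mutants, against 54 lower of the other 123, beside 26.1% lower over all tested genes. The difference between these counts was not tested. The largest group spans 35.6 kb of chromosome 4 (6726275 to 6761905) and holds Mp4g05960, Mp4g05980, Mp4g06010, Mp4g06030 and Mp4g06050. All 5 were lower for the mean. Mp4g06030 went from 3871, 4205 and 4099 TPM in BoGa to 2760, 2431 and 2509 TPM in Mpb-gata1-1 and 2698, 2945 and 3010 TPM in Mpb-gata1-2, and no library of either mutant reached BoGa. Mp4g06050, at rank 4 in BoGa, had a log2 change of -0.38 ± 0.09 in Mpb-gata1-1 and -0.37 ± 0.09 in Mpb-gata1-2.

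Some reads of this group were shared with other genes. In the set, 4 genes had under 90% unique reads, of which Mp4g05960, Mp4g05980 and Mp4g06010 lie in this group, and all 4 were lower. With unique reads alone, each named change in the set that had passed kept its direction and passed again.

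Other groups of neighbours differed between the mutants. On chromosome 2, Mp2g07490, Mp2g07500 and Mp2g07510 lie within 7866984 to 7874229, and on the same chromosome Mp2g12010, Mp2g12020 and Mp2g12030 lie within 12201117 to 12210494. All 6 were lower in Mpb-gata1-1, whereas in Mpb-gata1-2 Mp2g07510 and Mp2g12030 passed and the other 4 did not. The call of Mp2g12020 in Mpb-gata1-1 was lost without replicate 2 or replicate 3 of that mutant. On chromosome 7, Mp7g05880 and Mp7g05890 (6973794 to 6978070) were both lower in Mpb-gata1-1, at log2 -0.43 and -0.85, and stood at 0.03 and -0.31 in Mpb-gata1-2. Of the 27 neighbouring genes, 6 were higher in Mpb-gata1-2 than in Mpb-gata1-1 and none was lower, beside 17 and 22 of the whole set and 14.9% and 16.0% of all tested genes, and the difference between these counts was not tested.

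**Figure D5:**
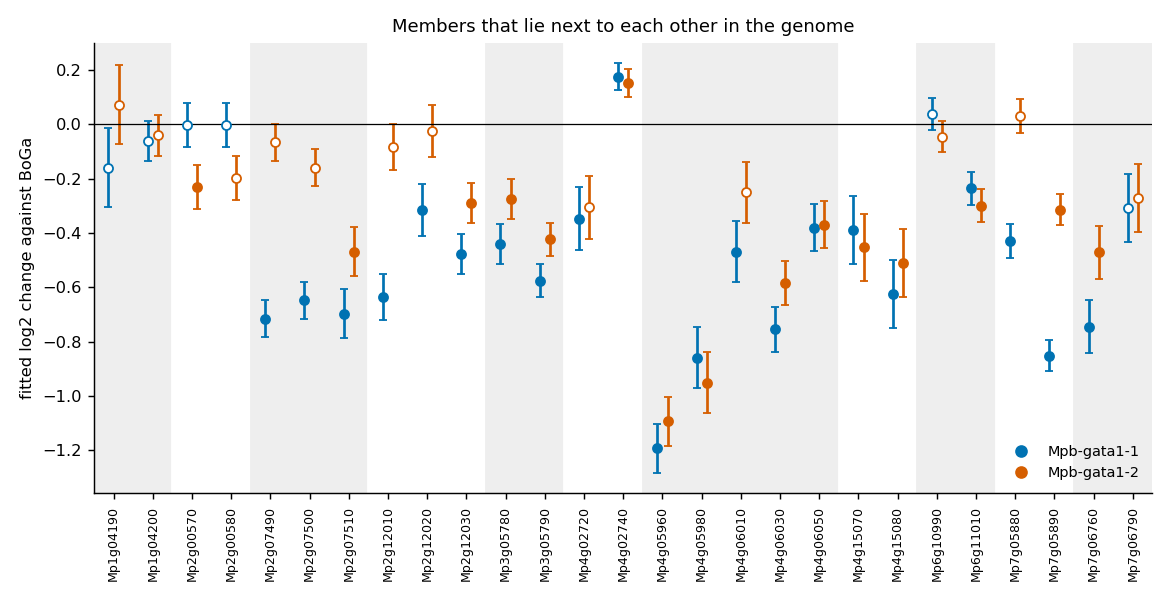
Fitted log2 change against BoGa (vertical axis, bars for the SE) of the 27 genes that have another gene of the set within 20 kb, with shaded and white bands for the 11 groups. Filled points passed at an adjusted p under 0.05, and the 5 genes of the chromosome 4 group starting at Mp4g05960 all lie below 0.

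Among the 11 genes with a symbol, those of protein synthesis did not pass for the mean of the mutants. MpEF1 (Mp3g23400, rank 11), a translation elongation factor, had 5426, 5495 and 5488 TPM in BoGa, 5818, 5887 and 5910 TPM in Mpb-gata1-1, and 5278, 5214 and 5101 TPM in Mpb-gata1-2. Its log2 change for the mean was -0.08 ± 0.04 (edgeR adjusted p = 0.154), and in Mpb-gata1-2 it was -0.17 (edgeR adjusted p = 0.0195), a call lost when BoGa replicate 2 or replicate 1 or 3 of Mpb-gata1-2 was left out. MpRACK1 (Mp3g15630), a ribosome-associated scaffold protein, stood at -0.08 ± 0.06 (edgeR adjusted p = 0.258). No gene with a ribosomal protein symbol was in the set.

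The water channels of the set did not pass either. MpPIP2 (Mp4g17210, rank 21), an aquaporin of the plasma membrane, had a log2 change of 0.05 ± 0.05 for the mean (edgeR adjusted p = 0.46). MpTIP1 (Mp1g20890, rank 28), an aquaporin of the vacuolar membrane, had 0.08 ± 0.12 (edgeR adjusted p = 0.624), with BoGa libraries as far apart as 2291 and 3247 TPM. Of the 6 tested aquaporin genes in all, none was higher and 2 were lower, beside 22.7% and 26.1% over all tested genes. Both of those, MpPIP1 (-1.41) and MpPIP2-like (-2.15), are outside the set.

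Of the actins of the set, 1 passed. MpACTIN7 (Mp6g11010, rank 80) had 1559, 1548 and 1346 TPM in BoGa, 1309, 1330 and 1395 TPM in Mpb-gata1-1, and 1307, 1273 and 1271 TPM in Mpb-gata1-2, and fell by 0.27 ± 0.05 on the log2 scale for the mean (edgeR adjusted p = 0.0017). MpACT1 (Mp6g10990, rank 99), its neighbour on chromosome 6, stood at -0.004 ± 0.05 and did not pass. Of the 6 tested actin and tubulin genes, 1 was higher and 1 lower, beside 22.7% and 26.1% over all tested genes.

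Of the Calvin cycle genes with a symbol, 1 was in the set. MpFBA2 (Mp6g07690, rank 24), a fructose-bisphosphate aldolase, had 2683, 2989 and 3295 TPM in BoGa, 2540, 2282 and 2380 TPM in Mpb-gata1-1, and 2479, 2685 and 2760 TPM in Mpb-gata1-2. In TPM the Mpb-gata1-1 libraries were below BoGa, and Mpb-gata1-2 overlapped it. In CPM every library of both mutants was below BoGa. MpFBA2 was lower in Mpb-gata1-1 (log2 -0.41, edgeR adjusted p = 0.00536) and in Mpb-gata1-2 (log2 -0.27, edgeR adjusted p = 0.0383). It fell by 0.34 ± 0.08 for the mean (edgeR adjusted p = 0.00574). Of 5 tested genes of this list, 1 was higher and 2 were lower, beside 48.8% called over all tested genes.

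MpGRP7 (Mp1g18780, rank 30), a glycine-rich RNA-binding protein, differed between the mutants. It had 2523, 2522 and 3033 TPM in BoGa and 2144, 2642 and 2472 TPM in Mpb-gata1-1. In Mpb-gata1-2 it had 3225, 3182 and 3162 TPM. In TPM every Mpb-gata1-2 library was above those of both other groups. In CPM the mean was 1826 ± 227 (SD) in BoGa and 2028 ± 28.7 (SD) in Mpb-gata1-2. The separation from BoGa is therefore stated for TPM alone. MpGRP7 was higher in Mpb-gata1-2 than in Mpb-gata1-1 by a log2 of 0.40 ± 0.09 (edgeR adjusted p = 0.00596). Against BoGa it did not pass in Mpb-gata1-2 (log2 0.15, edgeR adjusted p = 0.185) and was lower in Mpb-gata1-1 (log2 -0.25, edgeR adjusted p = 0.0377). MpCAT2 (Mp4g06600, rank 53) fell by 0.41 ± 0.05 for the mean (edgeR adjusted p = 9.53e-05). MpARFA2 (Mp3g13920), a small GTPase of the ADP-ribosylation factor family, and MpGH16.42, a family 16 glycoside hydrolase, did not pass in any comparison, at 0.06 ± 0.04 and 0.02 ± 0.07 for the mean. Of 135 tested genes in the list of expansins and glycoside hydrolases, 26 were higher and 43 lower, near the background of 22.7% higher and 26.1% lower.

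Despite these shifts, most of the set stayed at the top. By mean TPM, 136 of the 150 genes were still among the 150 highest in Mpb-gata1-1 and 139 remained there in Mpb-gata1-2, and 16 of the 20 highest were still among the 20 highest in each. The lowest rank reached was 258 in Mpb-gata1-1 and 242 in Mpb-gata1-2, both by Mp4g05960. In all, 9 genes left in both mutants, and 9 others entered in both.

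Most entrants came from just below the threshold, and Mp7g01940 came from rank 1064. This gene without a symbol (chromosome 7, 2581293 to 2588456, minus strand) had 142, 149 and 160 TPM in BoGa, 5354, 5660 and 5737 TPM in Mpb-gata1-1, and 2821, 2617 and 2760 TPM in Mpb-gata1-2, and reached ranks 10 and 28. Both mutants were far above BoGa, and Mpb-gata1-1 was above Mpb-gata1-2. The log2 change was 5.12 in Mpb-gata1-1 and 4.09 in Mpb-gata1-2. It took 0.0356% of gene reads in BoGa, 1.28% in Mpb-gata1-1, where it was the most-read gene, and 0.624% in Mpb-gata1-2. With its reads removed from the total, the share of the 150 genes was 20.8% in BoGa, 18.3% for Mpb-gata1-1 and 18.7% for Mpb-gata1-2, so the differences were -2.51 and -2.15 points. Among the other entrants, Mp3g22950 rose from just outside the threshold to ranks 101 and 97 (log2 0.34 and 0.31) and Mp3g21280 from rank 220 to ranks 158 and 150 (log2 0.37 and 0.36).

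The 150 genes were short, which the choice by TPM favours, and steady. Their median gene length, introns included, was 1764 bp, against 3793 bp for all genes of at least 1 CPM on these chromosomes. TPM divides by this length, so a short gene ranks higher for the same reads. The median coefficient of variation between replicates was 5.06% in BoGa, 5.12% for Mpb-gata1-1 and 4.80% for Mpb-gata1-2, against 8.12%, 6.57% and 5.96% for genes of at least 1 CPM, a set that includes genes with far fewer reads. Chromosomes 2 and 4 held 26 of the genes each, chromosome 7 held 25, and chromosomes 5 and 8 held 10 and 8. A gene on another strand or the same strand overlapped 8 of the 150, and none of the overlapping genes had 5% of the reads of its partner.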

How the data were processed

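RNA from 9 libraries was sequenced by the submitters after a stranded mRNA preparation, per the labels' protocols. Each deposited table gives, per the file headers, raw counts of total and of unique reads per gene as the authors deposited them, and TPM and RPKM values that the authors calculated over the whole gene length. Which aligner, genome version, annotation and strand setting lie behind them is not given in the sources used here. All coordinates come from the deposited tables. Symbols were matched by locus number to a table of the MpTak2_v7.1 assembly, in which all 150 genes matched. Sequences of these genes and their promoters were not used here, so the planned motif search was not run.

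Total gene reads were tested with edgeR 4.0.16 in R 4.3.3 (filterByExpr by group, TMM, robust quasi-likelihood, a term for each group, all 9 libraries), with Benjamini-Hochberg adjustment over 14667 tested genes (5907 were not tested) and a threshold of 0.05. The biological coefficient of variation was 9.08%. Log2 changes are fitted values with their SE, and per-library levels are the authors' TPM, so the scales differ. In Mpb-gata1-1 the median log2 change over all tested genes was 0.003 by the fit and 0.085 on log2(TPM + 1). For the set it was -0.14 and -0.05. For single genes, statements that libraries overlap or lie apart refer to TPM unless CPM is named. Shares are reads of the set over all gene reads and carry no test. Replicates of a group differed by more than sampling noise. Shared replicate numbers did not pair libraries across groups.

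The genes and lists were chosen with earlier results of these data known. The lists named are those with a gene in the set: Calvin cycle, translation factors, aquaporins, actins and tubulins, and expansins with glycoside hydrolases. Named genes are the most abundant, the largest changes in each comparison, the largest gains and losses of share, genes with a symbol, those beside the threshold and the highest genes from outside. Alternatives were limma 3.58.1 on TPM and RPKM, DESeq2 1.42.0, other scalings and filters, unique reads, a replicate block, fits without each library, other choices of genes and a V level covariate.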

Additional observations from a re-analysis of the deposited data

Results flagged for a closer look

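In 5 genes of the set, the change against BoGa differed between the mutants by the edgeR test of Mpb-gata1-2 minus Mpb-gata1-1, with a log2 difference of at least 0.5. The differences were 0.65 for Mp2g07490, 0.55 for Mp2g12010, 0.54 for Mp7g05890, 0.52 for Mp3g20970 and -2.11 for Mp7g02900. The first 4 were lower in Mpb-gata1-1 than in Mpb-gata1-2, and Mp7g02900 was lower in Mpb-gata1-2. None of the 5 differences lost its call when any single library was left out. Each lost it with the V level as a covariate, when 142 genes were higher and 140 lower of all 14667 tested. For these differences the V level and the mutant cannot be told apart.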

How the results depend on the processing

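The difference in mean share from BoGa kept its direction in both mutants under every alternative run. Leaving out 1 library in turn, the difference from BoGa ranged from -3.24 to -2.27 points for Mpb-gata1-1 and from -2.76 to -1.79 points for Mpb-gata1-2. As a share of the TPM sum it was 34.1%, 30.3% and 31.2% (BoGa, then the mutants in order), and -3.76 points for Mpb-gata1-1. With 100 genes the shares were 17.2%, 14.6% and 15.2%, with 200 genes 23.7%, 20.8% and 21.2%, and with genes chosen by CPM 22.37%, 19.32% and 19.97%. Chosen over all 9 libraries, the genes held 19.4% in Mpb-gata1-1, -1.26 points from BoGa, and the difference between the mutants reversed to -0.228 points. Chosen over the 6 mutant libraries, they held 19.46%, -1.16 points from BoGa, and the difference between the mutants reversed to -0.245 points. Each library's own 150 gave 19.46% and 19.32% in the mutants, -1.27 points for Mpb-gata1-1. With genes chosen over all 9 libraries, over the 6 mutant libraries or by each library, the BoGa and mutant libraries overlapped.

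Genes higher in Mpb-gata1-1 numbered 9 by library totals, limma on log2(RPKM + 1) or a choice by CPM, 24 by limma on log2(TPM + 1) or log2(TPM + 0.1), 8 with genes chosen over all 9 or the 6 mutant libraries, 7 with 200 genes, 1 with 100 genes, 2 at an adjusted p under 0.01, and 2 to 9 without 1 library. Its median log2 change was -0.0478 and -0.0479 on TPM with pseudocounts of 1 and 0.1, -0.0878 and -0.0752 with genes chosen over all 9 and the 6 mutant libraries, -0.2166 by CPM and -0.2402 with 100 genes. For Mpb-gata1-2, 40 genes were lower and 3 higher at an adjusted p under 0.01, 47 lower and 10 higher on either TPM scale (medians -0.0913 and -0.0914), 1 higher with 100 genes, and 44 to 78 lower without 1 library. For the mean, 13 were higher on either TPM scale (medians -0.0671 and -0.0672) and 2 with 100 genes. Genes lower in Mpb-gata1-2 than in Mpb-gata1-1 numbered 7 at an adjusted p under 0.01, 11 with 100 genes and 8 to 30 without 1 library. The cause of these changes was not tested, apart from those that a stricter threshold or fewer genes bring by construction. On the TPM scale the counts over all tested genes moved the same way, as given above.

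Shared replicate numbers did not pair the libraries (correlations of -0.333 to 0.334 between the deviations of the 9 same-numbered pairs, 2 of them over 0.1). With a replicate block, 67 genes were lower in Mpb-gata1-1, 62 in Mpb-gata1-2 and 67 for the mean, and between the mutants 14 were lower and 13 higher.

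With the V level as a covariate, chosen after seeing the data, 8 genes were lower in Mpb-gata1-1 (median 0.0093), 7 lower and 0 higher in Mpb-gata1-2 (median -0.2796), and 0 lower and 0 higher between the mutants (median -0.2978). Over all 14667 tested genes, 1103 were lower in Mpb-gata1-1, 655 lower and 500 higher in Mpb-gata1-2, and 140 lower and 142 higher between the mutants. The sign reversed for Mp7g09180 (0.2696), Mp4g15070 (0.2115), Mp6g07320 (0.0203), Mp8g15740 (0.0515), MpGRP7 (0.206) and MpFBA2 (0.0621) in Mpb-gata1-1, for Mp5g03550 (-0.2707) in Mpb-gata1-2, and between the mutants for Mp4g10850 (-0.4487), Mp7g06710 (-0.0623), Mp2g19940 (-0.5488) and MpGRP7 (-0.4929). The V level varies within groups mainly in BoGa, so these values extrapolate from 3 libraries.

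Of 135 named changes that passed, 135 kept direction and call with RLE factors, DESeq2, a stricter filter and unique reads, and 108 did so under every other setting as well, the stricter threshold and the V level covariate aside. The least-read gene of the set had 4597 reads in a library, and each group had 3 libraries. A planned motif search was not run.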

Other observations

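A gene of the V chromosome, MpVg01240, had a mean of 2082 TPM in BoGa, as high as genes of the set, and was left out by the restriction to chromosomes 1 to 8. Its mean was 2988 TPM for Mpb-gata1-1 and 4027 TPM for Mpb-gata1-2, so it did not follow the V level, which was lowest in Mpb-gata1-1. MpRBCS (Mp4g09890), the gene with a symbol for the small subunit of Rubisco, had a BoGa mean of 320 TPM, below the threshold of the set.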
